A study of Mus musculus with 4 samples.

Results

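A set of 7 genes of the alveolar epithelial type II (AT2) cell, *Lamp3*, *Abca3*, *Slc34a2*, *Napsa*, *Muc1*, *Ctsh* and *S100g*, were examined in the transcriptome of *Myh10* mutant lungs. They were taken by symbol, each symbol matched 1 row, and they are 7 of the 45706 genes in the deposited count table. RNA came from left lung lobes of C57BL/6 embryos at E17, 2 of them wild type (*Myh10*+/+) and 2 homozygous for *Myh10* L458R (*Myh10*L458R/L458R, here *Myh10*-/-). The allele arose in an ENU mutagenesis screen and is a missense change carried in every cell of the embryo, with no Cre or transgene, and none of the embryos was treated. All 4 libraries are mRNA of whole lobes, so fewer AT2 cells, less RNA per AT2 cell and more RNA from other cells cannot be told apart. The authors report more AT2 cells and higher *Sftpa*, *Sftpc* and *Abca3* expression in mutant lungs, with lower expression of LAMP3. Those results come from separate measurements, whose stage their main text does not give. Between 19116971 and 32055306 reads were counted per lung. *Myh10* itself had 505 and 504 CPM (the reads of a gene relative to all reads counted in the library, scaled by TMM) in *Myh10*+/+ lungs and 539 and 513 CPM in *Myh10*-/- lungs, so its level does not check the genotype, which is a missense change. Each genotype held 1 lung with *Xist* at 3914 or 4455 CPM and 1 with *Ddx3y* at 181 or 198 CPM, so the sexes were balanced. Transcripts that define the lung epithelium were abundant, with *Nkx2-1*, a transcription factor of lung epithelium, at 444 ± 14.5 CPM (SD, n = 2) in *Myh10*+/+ and 451 ± 5.27 CPM (SD, n = 2) in *Myh10*-/- lungs. *Sftpc*, the surfactant protein that marks AT2 cells, stood at 5720 ± 130 CPM (SD, n = 2) and 4311 ± 618 CPM (SD, n = 2).

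AT2 cells make pulmonary surfactant, the lipid and protein film that keeps alveoli open at birth, and store it in lamellar bodies, which are secretory organelles related to lysosomes. Phospholipid is pumped across the limiting membrane of the lamellar body, the precursor of surfactant protein B is cut by proteases on its way there, and the organelle then fuses with the apical membrane. LAMP3 is a glycoprotein of the lamellar body membrane and ABCA3 its phospholipid transporter. NAPSA (napsin A), an aspartic protease, and CTSH (cathepsin H), a cysteine protease, process the surfactant protein precursor. SLC34A2 is the sodium-dependent phosphate transporter of the apical membrane, MUC1 a membrane-tethered mucin of the same surface, and S100G a cytosolic calcium-binding protein also known as calbindin-D9k.

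The promoters of 5 of the 7 genes were found in the RefSeq promoter table (GRCm38.p6, 250 bases before to 50 after the start), and those of *Napsa* and *Ctsh* were not. For 4 of these genes the 100 bases before the start are shown, 5′ to 3′ on the gene strand, with motif letters in capitals. They lie at chr16:19706366-19706465 (minus strand, *Lamp3*, with its last 10 bases in the first exon of the GENCODE M21 annotation), chr5:53049253-53049352 (plus strand, *Slc34a2*, inside the span of the GENCODE gene, which starts further upstream), chr3:89228956-89229055 (plus strand, *Muc1*) and chrX:162964600-162964699 (minus strand, *S100g*).
Lamp3: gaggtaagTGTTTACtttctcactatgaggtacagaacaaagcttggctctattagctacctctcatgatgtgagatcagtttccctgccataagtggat
Slc34a2: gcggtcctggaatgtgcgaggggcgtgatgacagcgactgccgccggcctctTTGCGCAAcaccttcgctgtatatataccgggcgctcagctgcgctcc
Muc1: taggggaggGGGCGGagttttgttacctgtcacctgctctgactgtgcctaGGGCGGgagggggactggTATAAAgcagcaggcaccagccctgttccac
S100g: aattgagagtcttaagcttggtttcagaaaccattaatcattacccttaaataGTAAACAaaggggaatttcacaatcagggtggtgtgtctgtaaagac

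Both strands of each 300-base promoter were searched for letters bound by factors known from AT2 genes. These were TGTTTAC for the FOXA factors, TTGCGCAA for the C/EBP factors and 2 cores for NKX2-1, the first CAAGTG and the second of them CTCAAG, beside the general elements GGGCGG, known as the GC box, and the core promoter box with the letters TATAAA. No searched motif is contained in another. The FOXA letters occurred in *Lamp3*, starting 92 bases before the start, and on the opposite strand in *S100g* (there printed as the reverse complement), starting 47 bases before it, and 3.65% of all 32851 promoters in the table hold them. *Slc34a2* held the C/EBP palindrome 48 bases before its start, which 0.183% of all promoters hold. *Muc1* held a pair of GC boxes, a TATA box 31 bases before the start and, 21 bases after it, the core CTCAAG on the opposite strand. *Abca3* held 1 GC box, 9 bases before the start, and *S100g* a TATA box at the start itself. GC boxes are in 35.7% of all promoters, TATA boxes in 13.6%, CTCAAG in 15.9% and CAAGTG, found in none of the 5, in 13.6%. No single motif was shared by more than 2 of the 5 promoters. These matches are of letters only and carry no measurement of binding.

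All 7 genes were tested, and all 7 had lower values in both *Myh10*-/- lungs than in either *Myh10*+/+ lung. In edgeR's quasi-likelihood fit with Benjamini-Hochberg adjustment, at a threshold of 0.05, 6 of the 7 fell and none rose, whereas 1.34% of the 18763 genes tested were called lower and 0.298% higher. Separation of the genotypes without overlap in the lower direction was itself common, at 24.3% of the genes tested. At an unadjusted p under 0.05 in the edgeR fit, 1693 of the 18763 genes were lower and 1411 higher. The Wald test of DESeq2 called 259 lower and 92 higher. The unadjusted and DESeq2 counts of the lists below are to be read beside these. The median log2 fold change (*Myh10*-/- over *Myh10*+/+) of the 7 was -0.38, beside 0.00 (0.00179) over all genes tested. The change in level ran from -16.5% in *Abca3* to -63.3% in *S100g*, and *Ctsh* was the gene that did not pass. Summed over the 7 genes, the level was 2832 and 2601 CPM in *Myh10*+/+ lungs and 1926 and 2232 CPM in *Myh10*-/- lungs, and their reads made up 0.259% to 0.28% of the counts of a *Myh10*+/+ lung and 0.194% to 0.224% of those of a *Myh10*-/- lung. Within genotypes the lungs also moved as a block. *Myh10*+/+ lung 1 was above *Myh10*+/+ lung 2 for 7 of 7 genes, and *Myh10*-/- lung 1 was below *Myh10*-/- lung 2 for 6 of 7, all but *Abca3*, so the 7 genes do not give 7 independent views of the genotype. *Myh10*+/+ lung 1 and *Myh10*-/- lung 2 were the lungs with *Xist*, so this order also followed sex. With 1 lung of each sex per genotype, sex and other differences between lungs cannot be told apart.

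**Figure D1:**
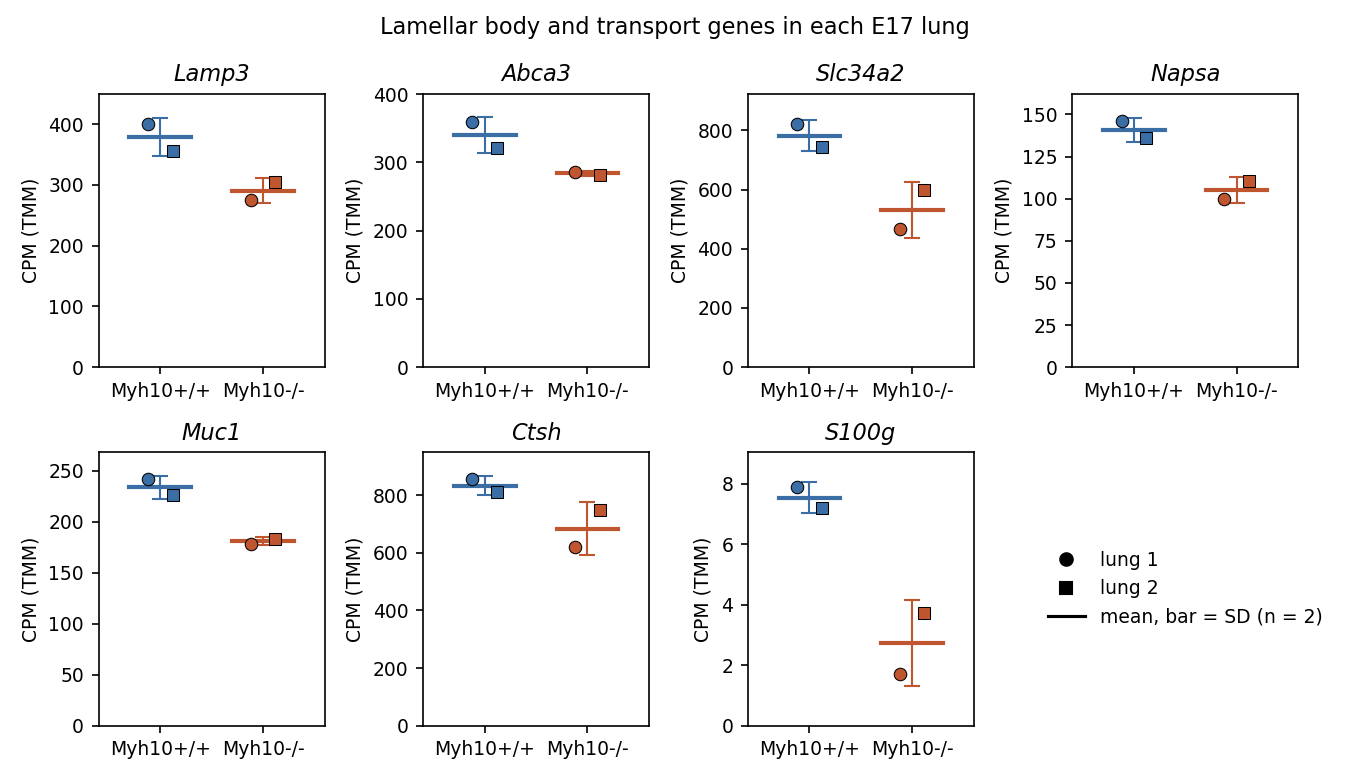
TMM-normalized CPM (vertical axis, from 0) of each of the 7 genes in the 4 E17 lungs, with circles for lung 1 and squares for lung 2 of a genotype, horizontal lines for genotype means and bars for the SD (n = 2). In every panel both *Myh10*-/- points lie below both *Myh10*+/+ points, and the gap is smallest relative to the spread for *Ctsh* (749 CPM in the higher *Myh10*-/- lung and 810 CPM in the lower *Myh10*+/+ lung).

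The lamellar body membrane genes come first. *Lamp3* (ENSMUSG00000041247, chromosome 16, 19653378 to 19706375, minus strand, GRCm38) was counted at 401 and 356 CPM in *Myh10*+/+ lungs and at 276 and 305 CPM in *Myh10*-/- lungs. Its level fell by 23.3%, which is -0.38 as a log2 fold change (SE 0.07, adjusted p = 0.0178, edgeR), with means of 379 ± 31.3 CPM and 291 ± 21.0 CPM (SD, n = 2 each). The mean gap was 2.81 times the larger of the SDs, but without *Myh10*+/+ lung 1, the highest of the 4, the log2 fold change was -0.30 and no longer passed (adjusted p = 0.0623). *Lamp3* has the lowest GC content of the 7 genes (38.7% over its transcript), and an offset for GC content and exon length moved its log2 fold change to -0.50 (adjusted p = 0.00362). Only 0.427% of the 75-base windows of its transcript, the length of a read, recur in transcripts of other genes.

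*Abca3* (ENSMUSG00000024130, chromosome 17, 24351950 to 24410201, plus strand) had 359 and 321 CPM in *Myh10*+/+ lungs and 286 and 281 CPM in *Myh10*-/- lungs. The 2 mutant lungs lay close together and below both others. This was the smallest called change of the 7 genes, a fall of 16.5% (log2 fold change -0.26, SE 0.06, adjusted p = 0.0458), and it rests on *Myh10*+/+ lung 1, without which it was -0.18 (adjusted p = 0.332). With a block that joins the lungs of the same sex, added after the data had been seen, the adjusted p was 0.0589. *D330041H03Rik*, a transcript gene on the opposite strand, overlaps 914 bp of the 9374 bp of *Abca3* exon, and 8.06% of the read-length windows of *Abca3* recur in other genes, among them this one and *Abca17*. No source used here says how strand was treated in the counting. The overlapping gene had 9.24 to 13.5 CPM and *Abca17* 2.05 to 2.71 CPM in the 4 lungs, levels far below that of *Abca3*.

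The protease genes of surfactant protein processing differed in whether they passed. *Napsa* (ENSMUSG00000002204, chromosome 7, 44572380 to 44586862, plus strand) was counted at 146 and 136 CPM in *Myh10*+/+ lungs and at 99.8 and 110 CPM in *Myh10*-/- lungs. It fell by 25.4% (log2 fold change -0.42, SE 0.06, adjusted p = 0.00961), and the gap between means was 4.74 times the larger SD. Leaving out any 1 lung kept this call, at log2 fold changes from -0.50 to -0.35. An antisense gene, *Gm15396*, overlaps 502 bp of its exons, with 0.18 to 0.559 CPM in the 4 lungs.

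*Ctsh* (ENSMUSG00000032359, chromosome 9, 90054152 to 90076089, plus strand) had 857 and 810 CPM in *Myh10*+/+ lungs and 619 and 749 CPM in *Myh10*-/- lungs. The mutant lungs differed from each other by more than the wild-type lungs did, and the higher of them came near the wild-type range. Its log2 fold change of -0.28 (SE 0.09, unadjusted p = 0.00965, adjusted p = 0.151) did not pass the threshold. The value was as large as that of *Abca3*, so the genes are set apart by the spread between lungs and not by the size of the difference. Without *Myh10*-/- lung 2 it was -0.43 (adjusted p = 2.66e-04), and without *Myh10*-/- lung 1 it was -0.15 (adjusted p = 0.677). With the block on sex it passed (adjusted p = 0.0444).

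Among the genes of the cell surface, *Slc34a2* (ENSMUSG00000029188, chromosome 5, 53038081 to 53071664, plus strand) was counted at 820 and 744 CPM in *Myh10*+/+ lungs and at 465 and 599 CPM in *Myh10*-/- lungs. Its log2 fold change was -0.56 (SE 0.10, adjusted p = 0.0225), with a fall from 782 ± 53.7 CPM to 532 ± 94.5 CPM (SD, n = 2 each). Of the 6 genes called, only *S100g* fell further, and the SD between mutant lungs was the largest of the 7 in CPM. Without *Myh10*-/- lung 1, the lowest, the log2 fold change was -0.38 and did not pass (adjusted p = 0.0845), and in the Wald test of DESeq2 the adjusted p was 0.0882. *Muc1* (ENSMUSG00000042784, chromosome 3, 89229057 to 89233381, plus strand) had 242 and 226 CPM in *Myh10*+/+ lungs and 178 and 183 CPM in *Myh10*-/- lungs. Its replicate lungs lay close together in both genotypes. It fell by 22.7% (log2 fold change -0.37, SE 0.05), with the lowest adjusted p of the 7 (0.00766), and it kept its call without any 1 lung, at -0.42 to -0.32.

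*S100g* (ENSMUSG00000040808, chromosome X, 162961992 to 162964599, minus strand) was by far the least abundant of the 7. Its raw counts were 181 and 137 in *Myh10*+/+ lungs and 48 and 120 in *Myh10*-/- lungs, which correspond to 7.90 and 7.19 CPM and to 1.72 and 3.73 CPM. Both mutant lungs lay below both wild-type lungs, and they were also far from each other. It fell by 63.3% (log2 fold change -1.45, SE 0.25, adjusted p = 0.0188), the largest change of the 7, and the log2 fold change lay at -1.02 without *Myh10*-/- lung 1 and at -2.13 without *Myh10*-/- lung 2, passing in both cases. The gene lies on chromosome X. In both genotypes the lower value came from the lung without *Xist*, at 1.72 against 3.73 CPM in *Myh10*-/- lungs and 7.19 against 7.90 CPM in *Myh10*+/+ lungs. The *Myh10*+/+ lungs were within 1 CPM of each other.

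**Figure D2:**
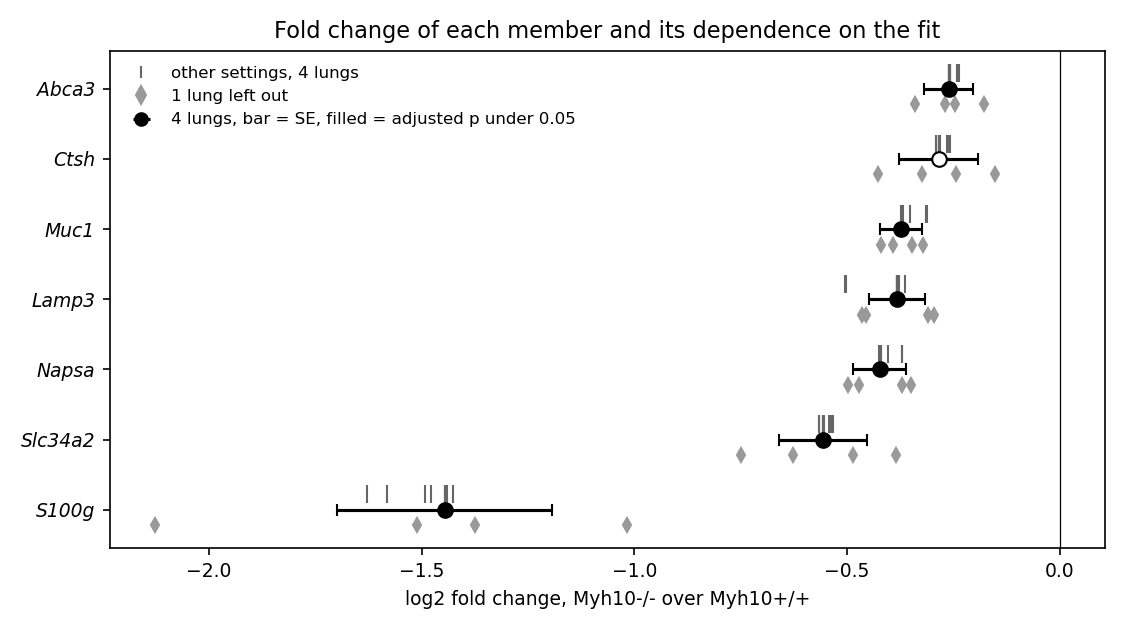
Log2 fold change (*Myh10*-/- over *Myh10*+/+, horizontal axis) of each gene from the fit to 4 lungs (circles, bars are the standard error, SE, filled where adjusted p was under 0.05), from other settings of the fit to 4 lungs (ticks above) and with 1 lung left out (diamonds below). Every mark lies below 0; *Ctsh* is the only open circle, and *S100g* spans -2.13 to -1.02 when a lung is left out.

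Per kb of exon, the levels of the 7 genes fell in the same order in both genotypes. In *Myh10*+/+ lungs *Ctsh* was highest with a mean level of 185 CPM per kb, followed by *Slc34a2* (156), *Lamp3* (113), *Muc1* (99.6), *Napsa* (53.0), *Abca3* (36.3) and *S100g* (15.7 CPM per kb). In *Myh10*-/- lungs these mean levels were 152, 106, 86.6, 77.0, 39.5, 30.3 and 5.68 CPM per kb. The 2 lungs of a genotype did not overlap between any of the 6 neighbours in this order, in either genotype, and the closest were *Slc34a2* and *Lamp3* in *Myh10*-/- lungs, at 92.8 CPM per kb in the lower lung for *Slc34a2* and 91.0 CPM per kb in the higher lung for *Lamp3*.

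The members are epithelial genes, and some but not all genes of a pan-epithelial list were also called lower. Of 22 pan-epithelial genes tested, 9 were called lower and none higher (15 lower and none higher at an unadjusted p under 0.05, and 9 and none in the Wald test of DESeq2), with a median log2 fold change of -0.25 and a summed level of 2807 to 2812 CPM in *Myh10*+/+ and 2408 to 2492 CPM in *Myh10*-/- lungs. Among these, *Krt8* and *Cdh1*, an epithelial keratin and E-cadherin, fell by 0.33 and 0.30 on the log2 scale (without *Myh10*+/+ lung 1 *Cdh1* did not pass, adjusted p = 0.107), while *Epcam* stood at -0.04 (adjusted p = 0.738) and *Nkx2-1* at 0.02 (adjusted p = 0.881). Values were below 0 for 20 of the 22 genes, and *Epcam* and *Nkx2-1* were among those closest to 0. Each member was therefore also divided by the geometric mean of the 22 genes in the same lung. On that scale *S100g* and *Slc34a2* were lower in *Myh10*-/- lungs by a log2 difference of -1.35 and -0.34. The difference was -0.20 for *Napsa*, -0.16 for *Lamp3* and -0.15 for *Muc1*, and none of these 5 genes overlapped between genotypes. For *Lamp3* the gap was slight, with a log2 ratio of 2.007 in the higher *Myh10*-/- lung and 2.016 in the lower *Myh10*+/+ lung. The share of all genes without overlap on this scale was not measured. For *Ctsh* (-0.07) and *Abca3* (-0.03) the genotypes overlapped. With 2 lungs per genotype the smallest p the two-sided exact permutation test allows is 0.333, which the first 5 genes reached, against 0.667 for *Ctsh* and 1 for *Abca3*. The median of the 7 differences was -0.16, and leaving out *Myh10*+/+ lung 1 brought it to -0.08. The part of the epithelial share in the fall of the members was not tested beyond these values.

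**Figure D3:**
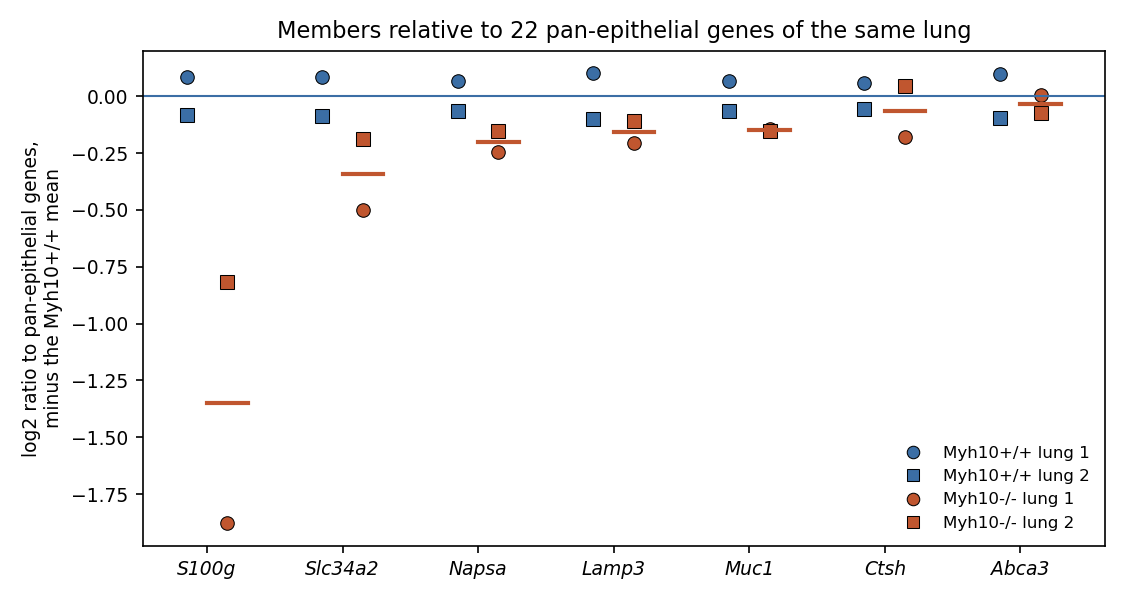
Log2 ratio of each gene to the geometric mean of 22 pan-epithelial genes in the same lung (vertical axis, set to 0 at the *Myh10*+/+ mean), with blue points for *Myh10*+/+ and orange points for *Myh10*-/- lungs and orange lines for the *Myh10*-/- mean. The *Myh10*-/- lungs lie below the *Myh10*+/+ lungs for *S100g*, *Slc34a2*, *Napsa* and *Muc1*, and only just below them for *Lamp3*. The genotypes overlap for *Ctsh* and *Abca3*.

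Markers of AT1, AT2 and club cells were also lower, while those of distal progenitors were not called. Of 18 other AT2 markers, 14 were called lower and none higher (10 lower by DESeq2), with a median log2 fold change of -0.48 and a summed level of 9076 to 9521 CPM in *Myh10*+/+ and 6270 to 7410 CPM in *Myh10*-/- lungs. *Sftpc*, which makes up much of that sum, was not called by edgeR (log2 fold change -0.41, adjusted p = 0.173). AT1 markers were called lower for 10 of 17 (7 by DESeq2, median -0.38) and club cell markers for 4 of 11 (2 by DESeq2, median -0.40). Of the 4 club cell calls, those of *Scgb1a1*, *Hp* and *Cbr2* did not pass with robust fitting (adjusted p = 0.343, 0.14 and 0.405). Robust fitting by edgeR also ended the AT1 calls of *Hopx*, *Aqp5* and *Gprc5a* (adjusted p = 0.095, 0.237 and 0.0576) and the AT2 call of *Scd1* (adjusted p = 0.229). Distal progenitor genes were called for 0 of 14 by edgeR (1 lower and 1 higher at an unadjusted p under 0.05, none by DESeq2), with a median of 0.03. Mesenchymal genes were called for 0 of 17 (2 lower and 3 higher unadjusted, none by DESeq2) with a median of 0.00 (0.00278), and ciliated cell genes for 0 of 12 (6 lower and 1 higher unadjusted, none by DESeq2) with a median of -0.19. In the endothelial list 1 of 15 genes, *Cldn5*, was called lower (adjusted p = 0.0379, and 0.0937 without *Myh10*+/+ lung 2). There 7 were lower and none higher unadjusted and 1 was lower by DESeq2, with a median of -0.10, 13 of 15 values below 0 and a summed level of 2485 to 2496 CPM in *Myh10*+/+ and 2280 to 2294 CPM in *Myh10*-/- lungs. The part of these cell types in the fall of the members was not tested.

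Outside the epithelium, *Lamp3* is also known from mature dendritic cells and *Ctsh* from macrophages. Of 12 dendritic cell markers, *Ccr7*, *Flt3*, *Xcr1*, *Cd209a* and *Ccl22* had at most 5 counts in any lung and did not reach the test, and the other 7 did. *Lamp3* had 6791 to 9832 counts, and the part of dendritic cells in them was not tested. The 12 markers summed to 206 to 212 CPM in *Myh10*+/+ and 200 to 205 CPM in *Myh10*-/- lungs, most of it *Fscn1*, and 0 of the 7 tested were called (1 lower unadjusted, none by DESeq2). Macrophage markers summed to 421 to 448 CPM and 338 to 394 CPM, with a median log2 fold change of -0.14. Of 17 tested, *Lyz2*, also an AT2 gene, was called lower by edgeR (6 lower and none higher unadjusted), and it did not pass in DESeq2 (adjusted p = 0.164), which called 1 other macrophage gene lower. *Csf1r*, the receptor that defines macrophages, had 35.9 ± 0.751 CPM and 30.8 ± 0.67 CPM (SD, n = 2 each), a log2 fold change of -0.22 that did not pass (adjusted p = 0.163), and *Siglecf* had at most 3 counts in a lung.

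The machinery that builds lamellar bodies and other lysosome-related organelles, such as the AP-3 and HPS complexes, was described by a list of 38 genes, 37 of them tested. By edgeR *Nedd4l* and *Lpcat1* were called lower and none higher (5 lower and none higher unadjusted, 3 lower by DESeq2), with a median log2 fold change of -0.05. *Nedd4l*, a ubiquitin ligase, had 236 ± 2.97 CPM and 196 ± 1.26 CPM (SD, n = 2 each; log2 fold change -0.27, adjusted p = 0.0141, and 0.0765 without *Myh10*+/+ lung 1 or 0.0536 without *Myh10*+/+ lung 2). *Lpcat1*, which makes the saturated phosphatidylcholine of surfactant, had 502 ± 26.1 CPM and 384 ± 31.6 CPM (log2 fold change -0.39, adjusted p = 0.0166). For *Ap3b1* and *Hps1*, subunits whose loss disturbs lamellar bodies, log2 fold changes stood at -0.07 (adjusted p = 0.585) and 0.03 (adjusted p = 0.911). Neither called gene encodes a subunit of those complexes. In RNA of whole lobes, the level of these genes in AT2 cells cannot be told apart from that in other cells.

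Of 31 tested genes of surfactant secretion and recycling, 4 were called lower and none higher (10 lower and 1 higher unadjusted, 4 lower by DESeq2), with a median of -0.08. Among them were *Rab27a* and *Rab3d*, small GTPases of secretory granules, and *Unc13d*, a priming factor for exocytosis, at log2 values of -0.39 (adjusted p = 0.04), -0.35 (adjusted p = 0.0407) and -0.39 (adjusted p = 0.0471). Of 15 alternatives, 2 ended the call of *Rab27a*, 3 that of *Rab3d* and 4 that of *Unc13d*, all 3 genes losing it without *Myh10*+/+ lung 1 (adjusted p = 0.0995, 0.0775 and 0.071) and without *Myh10*-/- lung 1 (0.0911, 0.0793 and 0.221). *Adgrf5*, a receptor that restrains the surfactant pool, had 234 ± 13.6 CPM and 226 ± 5.77 CPM (SD, n = 2 each), with a log2 fold change of -0.06 (adjusted p = 0.634). Lysosomal genes used by all cells were called lower for 1 of 39 (*Scarb2*, -0.21, adjusted p = 0.0475) and higher for none (14 lower and none higher unadjusted, 3 lower by DESeq2), with a median of -0.13, and 35 of the 39 had values below 0. The call of *Scarb2* was lost in 7 of 15 alternatives (adjusted p up to 0.275).

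Relatives of the members showed few calls. In the LAMP family (0 of 3 called by edgeR, 1 lower unadjusted, none by DESeq2), *Lamp1* and *Lamp2* stood at -0.19 (adjusted p = 0.115) and -0.05 (adjusted p = 0.695), and *Lamp5* had at most 3 counts. Of the other ABCA transporters 0 of 11 were called (none lower and 2 higher unadjusted, none by DESeq2), with a median of 0.05, and *Abca1*, the cholesterol exporter with the highest level per kb, stood at 0.07 (adjusted p = 0.576). Phosphate transporters other than *Slc34a2* were called for 0 of 3 (1 higher unadjusted, none by DESeq2), with a median of 0.09, and *Slc20a1* had 48.1 ± 2.59 CPM and 51.4 ± 2.88 CPM (SD, n = 2 each). The sister genes *Slc34a1* and *Slc34a3* had at most 1 count in a lung, which leaves *Slc34a2* as the member of its family that was measured.

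Among aspartic proteases 1 of 6 was called lower (3 lower and 1 higher unadjusted), *Pgc*, the pepsinogen C gene that AT2 cells also express, at 18.3 ± 0.459 CPM and 14.1 ± 0.318 CPM (SD, n = 2 each; log2 fold change -0.37, adjusted p = 0.0475). This call was lost in 10 of 15 alternatives, among them DESeq2 (adjusted p = 0.134), which called 1 other gene of the list lower. *Ctsd*, the lysosomal protease with the highest level per kb of that list, had a log2 fold change of -0.22 (adjusted p = 0.0618). Cysteine cathepsins other than *Ctsh* were called for 0 of 9 (6 lower and none higher unadjusted, none by DESeq2), with a median of -0.18, and *Ctsz*, the highest per kb, stood at -0.15 (adjusted p = 0.239). Membrane mucins other than *Muc1* were called for 0 of 4 (1 lower unadjusted, none by DESeq2), with *Emcn*, an endothelial sialomucin, at -0.15 (adjusted p = 0.147). In the S100 family 1 of 13 was called lower (5 lower and none higher unadjusted, none by DESeq2), *S100a9*, a subunit of calprotectin (log2 fold change -0.55, adjusted p = 0.0326, and 0.151 without *Myh10*+/+ lung 1), and *S100a11*, the highest per kb, stood at -0.15 (adjusted p = 0.321). The median of the S100 list was -0.22, and in none of the 7 family lists was a gene called higher.

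**Figure D4:**
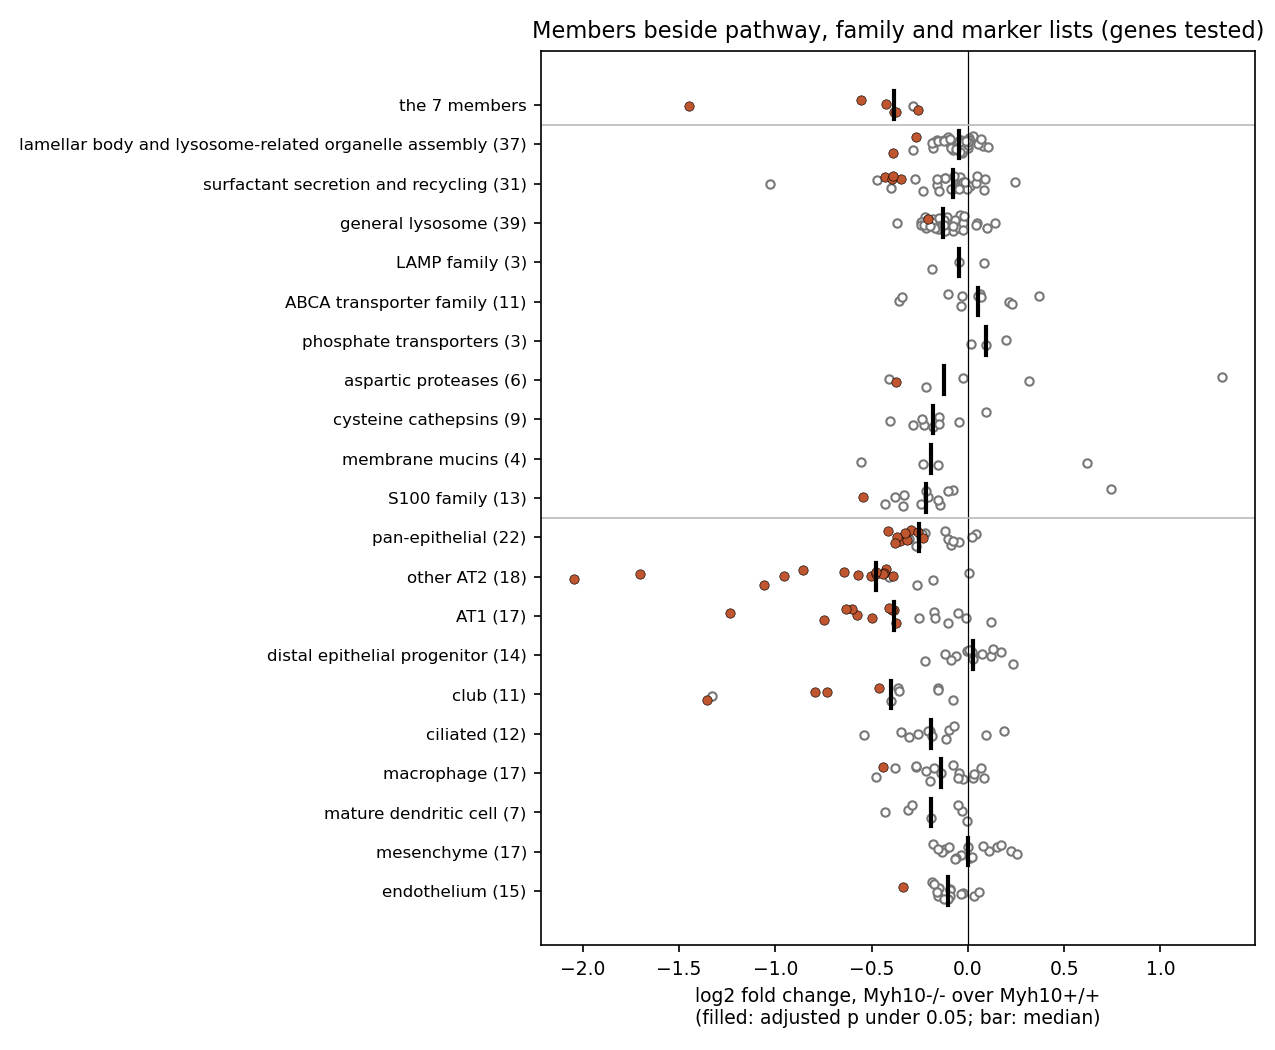
Log2 fold change (*Myh10*-/- over *Myh10*+/+, horizontal axis) of the 7 members and of the tested genes of each pathway, family and marker list (number tested in brackets), with filled points for an adjusted p under 0.05 and black bars for medians. The members (median -0.38) sit with the AT1, club and other AT2 lists (medians -0.38, -0.40 and -0.48) and below the list of organelle assembly (-0.05), and the mesenchymal and progenitor lists center on 0.

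For each member the protein-coding gene with the most similar profile over the 4 lungs was found among 10748 genes whose counts averaged 250 or more, by the root mean square difference of log2 CPM deviations. *Lamp3* was nearest to *Rab27a* (difference 0.00929, with *Rab27a* at 48.4 and 43.3 CPM in *Myh10*+/+ and 33.3 and 36.4 CPM in *Myh10*-/- lungs). *Slc34a2* was nearest to *Scnn1a*, a subunit of the epithelial sodium channel (0.0168), and *Abca3* to *Itga3*, an integrin subunit (0.0147). *Napsa* was nearest to *Gsap* (0.00753), *Muc1* to *Tnfrsf21* (0.0142) and *Ctsh* to *Lpl* (0.0114), the gene of lipoprotein lipase. *S100g* was nearest to *Lyz1*, a lysozyme gene (0.0415), which had 53.8 and 49.8 CPM in *Myh10*+/+ and 12.6 and 25.4 CPM in *Myh10*-/- lungs and shares much of its sequence with *Lyz2*, so its count is uncertain. A profile over 4 lungs is a description, and many genes share such a shape.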

How the data were processed

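The authors deposited raw, unnormalized read counts for each Ensembl gene. Before deposit, stranded mRNA libraries were read from one end (75 bases), and the authors trimmed with Reaper, mapped to GRCm38 (mm10) using STAR 2.4.0a and counted exonic reads with featureCounts 1.5.1. Reads on several genes or several regions were dropped, which lowers the count of genes with overlaps or near copies. The strand setting is not given in the sources used here.

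Here, genes with a mean of 5 counts or more over the 4 lungs (18763) were scaled by TMM and fitted with edgeR 4.0.16 in R 4.3.3 (glmQLFit, glmQLFTest, genotype alone), with Benjamini-Hochberg adjustment over all of them. The standard error is the absolute log2 fold change over the root of F. DESeq2 1.42.0 served as an alternative. Lungs come from separate embryos, and lungs of one genotype varied beyond counting noise (chi-square divided by its degrees of freedom, 7.47 and 12.6), so 2 lungs per genotype limit the precision, more than depth does. Positions, exon lengths and transcripts are from GENCODE M21 (GRCm38), promoters from RefSeq (GRCm38.p6). The code was tested on simulated counts.

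Members and lists were chosen with earlier results of these data known. Named are the members, per pathway or family list up to 4 lower and 3 higher called genes with the lowest adjusted p, the family gene with the highest level per kb and the nearest profiles. One called gene of a list is not reported here by name. Marker genes, complex subunits and undetected relatives named beside them were picked after their values were seen. Alternatives were scaling, filters, robust fitting, dropping chromosomes X, Y and MT, GC and length offsets, DESeq2, replicate blocks and leaving out each lung.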

Additional observations from a re-analysis of the deposited data

How the results depend on the processing

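All 7 genes kept a log2 fold change below 0 in every alternative that gave a value, including each lung left out. The number of the 7 called lower was 6 in the main fit, beside 252 of all genes tested, and 7 with no filter, beside 688. With each lung left out, the median log2 fold change of the 7 lay between -0.46 and -0.32. The Wald test of DESeq2 called 4, with no adjusted p for *S100g*, beside 259 of all genes lower. Without chromosomes X, Y and MT, which removes *S100g*, 5 of 6 were called, beside 289 of all genes lower. *Napsa* and *Muc1* kept their call in all 15 alternatives and *S100g* in all 13 that gave it an adjusted p. With no filter on low counts *Ctsh* also passed (adjusted p = 2.11e-04). The median of the members relative to pan-epithelial genes was -0.16, -0.28 against *Epcam*, *Cdh1* and *Nkx2-1* alone and also against the median of the list, and between -0.26 and -0.08 with each lung left out. Of 776 values for 52 other called or nearest genes, 678 kept their side of the threshold, 85 lost a call, 13 gained one and none reversed.

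Over all genes 308 were called. The count was 1162 with no filter, 474 with robust fitting, 710 with the replicate block and 1073 with the block and the GC and length offset, and between 206 and 1643 with each lung left out, the highest without *Myh10*-/- lung 2; the cause was not tested. Scaling by library totals made 67.7% of the calls lower, against 81.8% with TMM. When a lung is left out, the lone lung of its genotype is assumed to vary like the others.

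Same-numbered lungs deviated with a correlation of -0.297 across all tested genes and 0.0114 without chromosomes X and Y (genes are not independent replicates). With 2 lungs per genotype these values cannot decide whether the numbers pair the lungs, and the main fit used no pairing. With the replicate block 6 of the 7 genes were called. A crossed block, added after the data had been seen, joins *Myh10*+/+ lung 1 with *Myh10*-/- lung 2 and so is also a block on sex by *Xist* and *Ddx3y*. It called 415 genes over all and 6 of the 7, with *Abca3* losing its call (adjusted p = 0.0589) and *Ctsh* gaining one (adjusted p = 0.0444).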
